A study of Mus musculus with 24 samples.

Results

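Myogenic regulatory factors, MEF2 proteins and SIX4 form the transcription factor network that builds and maintains skeletal muscle, and the peaks of the histone mark H3K27ac at 9 of these genes are described here. The genes were Myod1, Myog, Myf5, Myf6, Mef2a, Mef2c, Mef2d, Six4 and Pax7. A peak belonged to a gene if it overlapped the gene body by 1 bp or more, or lay within 10 kb of any RefSeq transcription start of that gene on mm10. The rule took 375 of the 469078 peaks in 8 lists, and 20 of these lay in the windows of both Myf5 and Myf6, which are neighbors on chromosome 10. When peaks that overlapped between lists were merged, the 375 peaks formed 158 regions.

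The authors profiled H3K27ac by chromatin immunoprecipitation and sequencing in myofibers that collagenase II had freed from the quadriceps of C57BL/6 mice (C57BL/6J in the study's methods). Mice were 10 weeks old when treatment began and carried no genetic alteration. Vehicle was DMSO in PBS, and treated mice were given 1 mg/kg prednisone once a week for 5 injections, with vehicle on the other days. Males and females were collected after vehicle, or 4, 6 or 8 days after the fifth injection, and for each of these 8 groups a single peak list was deposited, from 2 H3K27ac libraries with 1 input library. With 1 list per group there was no replicate error, no test between groups was possible, and every difference between lists below is a description of these lists.

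MYOD1, MYF5, MYF6 (also called MRF4) and MYOG are basic helix-loop-helix proteins that bind E-boxes together with E proteins. MYOD1 and MYF5 commit cells to the muscle lineage, MYOG drives their differentiation, and MYF6 is the family member most associated with mature fibers. MEF2 proteins bind an A/T-rich element and cooperate with these factors at muscle genes, SIX4 binds the MEF3 element, and PAX7 marks satellite cells, the stem cells of adult muscle. H3K27ac is found at active promoters and enhancers.

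The sequences below are examples of binding motifs of the network within sequence covered by peaks, chosen to show what lies under the peaks described afterward; the other matches are counted but not printed. Capitals mark the motif. The Myog promoter (chr1:134289754-134290003, plus strand) and the Six4 promoter (chr12:73113246-73113495, minus strand), given as the 250 bases before the RefSeq start of mm10, each held the MEF3 motif TCAGGTT, which SIX4 binds, or its reverse complement.
Myog promoter: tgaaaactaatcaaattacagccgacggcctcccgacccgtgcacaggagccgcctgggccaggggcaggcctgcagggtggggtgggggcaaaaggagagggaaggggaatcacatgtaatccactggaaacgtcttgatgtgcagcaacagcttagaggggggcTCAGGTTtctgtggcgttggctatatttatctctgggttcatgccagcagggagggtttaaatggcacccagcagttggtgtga
Six4 promoter: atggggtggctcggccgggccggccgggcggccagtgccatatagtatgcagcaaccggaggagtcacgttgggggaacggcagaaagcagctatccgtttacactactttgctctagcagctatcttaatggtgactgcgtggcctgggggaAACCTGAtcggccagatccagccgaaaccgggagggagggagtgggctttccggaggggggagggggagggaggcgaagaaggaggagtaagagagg

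The MEF2 consensus was found in 10 of the 158 regions, 12 times in all, and 6 of the 12 matches were the same 10 bases, CTAAAAATAG. Those in peaks of all 8 lists lay at Mef2d, upstream of the start (chr3:88140743-88140852) and in an intron (chr3:88150172-88150281), and at the Mef2a start (chr7:67372841-67372870, minus strand). A pair 12 bases apart lay in an intron of Mef2c (chr13:83603945-83604036), within peaks of the 3 treated female lists. The sequences are from the mm10 genome and, unless a strand is given, from the plus strand.
Mef2d upstream: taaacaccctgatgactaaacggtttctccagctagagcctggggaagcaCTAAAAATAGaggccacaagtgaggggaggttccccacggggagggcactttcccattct
Mef2d intron: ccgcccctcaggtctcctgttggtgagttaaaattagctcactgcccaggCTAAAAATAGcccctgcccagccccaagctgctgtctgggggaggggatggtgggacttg
Mef2a start: ggcctgactcCTAAAAATAGccccggtgtg
Mef2c intron: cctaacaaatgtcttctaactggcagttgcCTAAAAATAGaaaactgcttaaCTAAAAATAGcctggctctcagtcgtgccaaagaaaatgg

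The lists differed widely in depth and length. The number of H3K27ac tags behind a list ranged from 7.52 megatags (M, male day 4) to 50.5 M (male day 6), and the number of peaks from 17482 (male day 4) to 123249 (female day 6). Peaks held from 5.39% of tags (male day 6) to 47.3% (female day 6). The median fold over input of all peaks in a list ranged from 4.49 (male vehicle) to 10.7 (female vehicle). Depth and length went together in some lists only. The list of lowest depth, male day 4, was also the shortest, but the deepest, male day 6, held 32188 peaks. A peak missing from a list was not called there, which does not show that the mark was absent. Of 7 myofiber markers, including the actin Acta1 and the calcium channel Ryr1, the number with a start in a peak was 2 in female vehicle and male day 4, 4 in male day 6, 5 in female day 6, male vehicle and male day 8, and 6 in female days 4 and 8. Myh1 had none in any list, and Ryr1 had one in all 8. In bulk chromatin, fewer cells of a type and less signal per cell cannot be told apart.

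The number of peaks at the 9 genes in females was 33 in vehicle, 74 on day 4, 81 on day 6 and 67 on day 8. In males it was 40 in vehicle, 14 on day 4, 41 on day 6 and 25 on day 8. As a share of all peaks of the list this was 0.0849%, 0.110%, 0.0657% and 0.0820% in females and 0.0457%, 0.0801%, 0.127% and 0.122% in males, in the same order, so that from vehicle to day 4 in males the number was lower and the share higher. Of the 158 regions, 96 were found in 1 list and 5 in all 8, and of all 249990 merged regions 1.7% were in all 8. The share of all merged regions found in 1 list is not given here, so the 96 cannot be called high or low for the series. Introns held 113 regions, 19 lay upstream and 11 covered a start. Mef2c, which has the longest gene body of the 9 (163 kb), had 60 regions, Pax7 had 43 and Mef2a had 26.

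**Figure D1:**
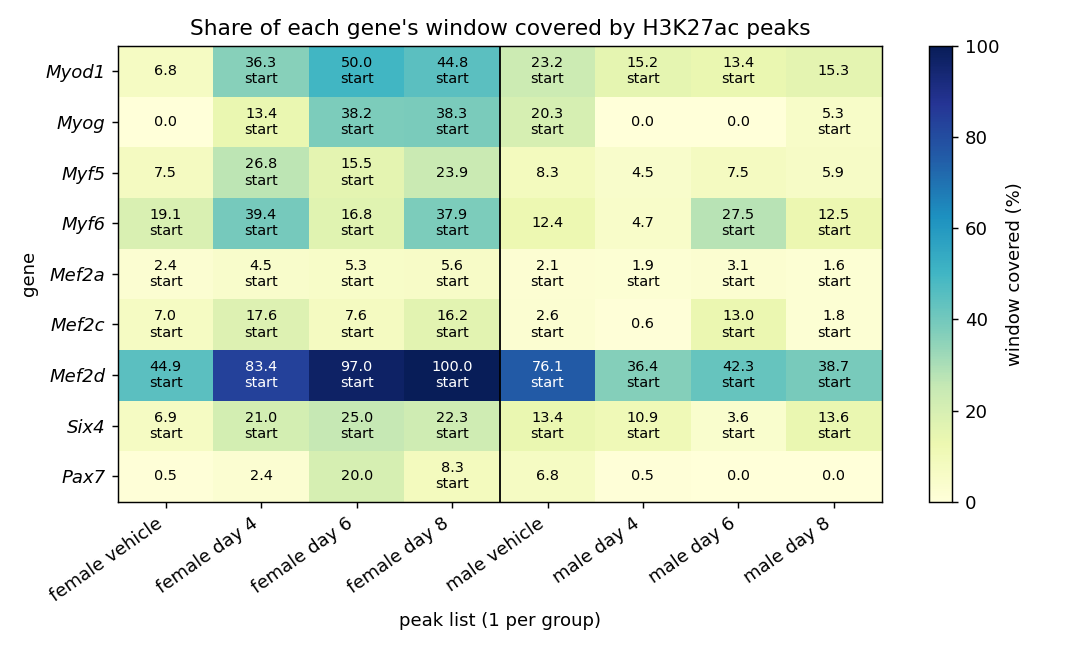
Percent of each gene's window (gene body and 10 kb around each start) covered by H3K27ac peaks, by gene (rows) and peak list (columns); "start" marks lists in which a RefSeq start of the gene lay in a peak. Mef2d was covered from 36.4% to 100% in all 8 lists, and Pax7 and Myog were at 0 in several lists.

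Genes whose start was in a peak of every list were Mef2a, Mef2d and Six4, 3 of 9. With lists of equal length, in which each was reduced to its 17482 highest-scoring peaks, Mef2a was the only one of the 3 left, and the regions in all 8 lists were those of Mef2a and Mef2d. By normalized tags, the largest Mef2d peak ranked from 5 (female vehicle) to 18 (female day 6) in its list. The largest peak of the Six4 start region ranked from 398 (male day 4) to 8906 (female vehicle), so this result depends on ranking by score. Of all 21774 protein-coding genes, 7.91% had a start in a peak of all 8 lists. Mef2c had a start in a peak of 7 lists, every list other than male day 4. Myod1 had its start in a peak of 6 lists, missing from female vehicle and male day 8, and Myf6 in 6, missing from male vehicle and male day 4. Myog had its start in a peak of 5 lists, Myf5 of 2 and Pax7 of 1, where the Pax7 start was a predicted one. The Myf5 start in a peak was a predicted one at female day 4 and the curated one at female day 6. The share of all protein-coding genes with a start in a peak was 17% in female vehicle, 46.7% on day 4, 62.8% on day 6 and 56.5% on day 8. The male lists had 42% in vehicle, 21.9% on day 4, 21.5% on day 6 and 27% on day 8. Of the 4 genes with no start in a peak in female vehicle, Myod1, Myog and Myf5 had one on day 4 and Pax7 did not, against 36.4% of all such genes. Of the 3 with none in male vehicle, Myf5, Myf6 and Pax7, 0 had one on day 4, against 3.95%.

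Mef2d, which encodes a MEF2 protein present in differentiated muscle, was covered by a single merged region of 45359 bp (chr3:88130795-88176154), which began upstream of the gene and ran past its end. No other coding gene had its start in this region. Among the 4250 regions found in all 8 lists, it was number 19 by width, against a median of 4614.5 bp. Peaks covered 44.9% of the Mef2d window in female vehicle, 83.4% on day 4, 97.0% on day 6 and 100% on day 8. In males they covered 76.1% in vehicle, 36.4% on day 4, 42.3% on day 6 and 38.7% on day 8. In each list this share was above the 99.9th percentile of all protein-coding genes. The female vehicle list held its widest peak of all, 13015 bp, at Mef2d, while at female day 8 a single peak covered 45156 bp.

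Mef2d also held the largest share of the tags in each list. Of all normalized tags in peaks of the 9 genes, from 48.1% (female vehicle) to 61.2% (male vehicle) were in Mef2d peaks. The fold over input in the Mef2d region was 6.05 in female vehicle (exact 95% interval 4.92–7.52), 6.80 on day 4 (6.09–7.60), 20.1 on day 6 (18.5–21.9) and 16.1 on day 8 (14.5–18.0). In males it was 5.73 in vehicle (5.25–6.27), 7.89 on day 4 (6.68–9.31), 3.85 on day 6 (3.36–4.43) and 5.13 on day 8 (4.32–6.14). These intervals cover counting error only, not the spread between mice. Here and below, the fold of a region is that of the peaks called in it, so the sequence differs between lists. At Mef2d it was from 14622 bp (male day 4) to 45156 bp (female day 8). All 8 lists shared 5 stretches of the region, of which the longest, 6051 bp, covered the start, and the upstream and intronic MEF2 matches printed above lay within shared sequence.

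**Figure D2:**
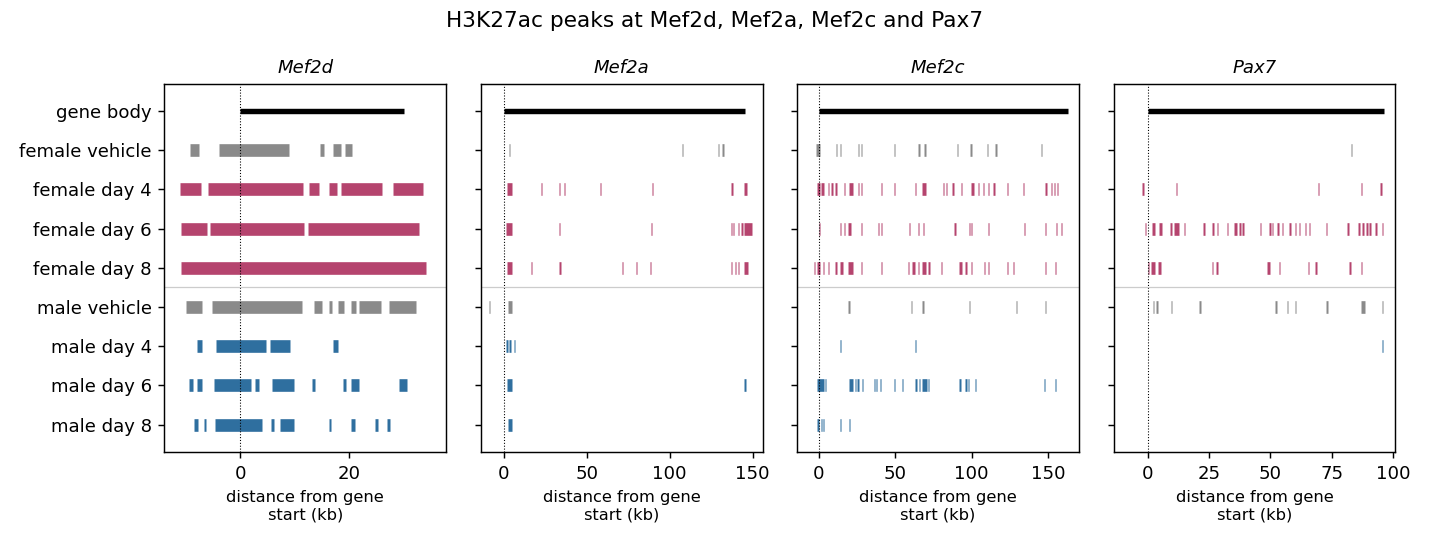
Peaks at Mef2d, Mef2a, Mef2c and Pax7 in the 8 lists, against distance from the 5′ end of the gene in kb (black bar, gene body; gray, vehicle; pink, treated females; blue, treated males). Mef2d peaks merge into 1 block at female day 8, the constant Mef2a peak lies inside the gene because the RefSeq start it covers is downstream of a predicted one, and Pax7 peaks are most numerous at female day 6.

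Mef2a, the gene of a MEF2 protein found in most tissues, had a focal pattern rather than a broad one. Peaks covered only 1.6% to 5.6% of its window, between the 36.2nd (male vehicle) and the 74.1st (male day 6) percentile of all protein-coding genes. A region at its start (chr7:67371403-67375510), however, was in all 8 lists. The largest peak of this region was at the 86.7th percentile of its list by normalized tags in female vehicle, and between the 97.6th (female day 4) and the 99.2nd (male day 6) in the other lists. The fold over input in the start region was 11.5 in female vehicle (3.78–57.2), 11.9 on day 4 (7.33–20.6), 25.0 on day 6 (18.6–34.2) and 33.8 on day 8 (20.4–60.7). Male values were 11.2 in vehicle (7.24–18.1), 12.5 on day 4 (7.83–20.3), 5.36 on day 6 (3.65–8.17) and 9.19 on day 8 (5.35–17.1). A stretch of 869 bp, which held the start and the MEF2 match printed above, was in a peak of every list.

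Mef2c, which encodes the MEF2 protein best known for muscle and heart development, had 60 regions in the longest window of the 9 genes (173 kb). None of the 60 was in all 8 lists, and Pax7 and Myog had no such region either. The number of Mef2c peaks was 15 in female vehicle, 37 on day 4, 20 on day 6 and 29 on day 8. In males it was 7 in vehicle, 2 on day 4, 21 on day 6 and 5 on day 8. The region over its first start was in 7 lists, missing from male day 4. The peaks of male day 6 (21) were thus more than those of male vehicle (7) although the male day 6 list as a whole was shorter, with 32188 peaks against 87600. The intronic region with the paired MEF2 matches was in 5 lists: all 4 female lists and male vehicle. The pair itself lay in a peak at female days 4, 6 and 8.

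Myod1, the master regulator of the muscle lineage, was marked in all 8 lists by a region of 8991 bp (chr7:46369969-46378960). In females it grew from 1 peak of 1366 bp in vehicle to 4 peaks covering 6753 bp on day 4, and was a single peak of 8787 bp on day 6 and 8965 bp on day 8. In males peaks covered 4641 bp in vehicle, 3034 bp on day 4, 2688 bp on day 6 and 3062 bp on day 8. The fold over input was 8.36 in female vehicle (3.45–26.4), 3.97 on day 4 (3.10–5.16), 10.9 on day 6 (8.84–13.7) and 12.5 on day 8 (9.50–16.6). The male folds were 4.58 in vehicle (3.57–5.95), 6.77 on day 4 (4.56–10.02), 2.37 on day 6 (1.65–3.49) and 3.52 on day 8 (2.35–5.46). The 1047 bp shared by all 8 lists (chr7:46375247-46376293) ended just before the start.

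Myog, the differentiation factor downstream of MYOD1, had no peak in female vehicle, male day 4 or male day 6. The region over its start (chr1:134289096-134293268) was in the 3 treated female lists, male vehicle and male day 8, and it also held the start of the noncoding RNA Myoparr. Peaks there covered 1859 bp at female day 4, 3893 bp on day 6, 3785 bp on day 8, 1759 bp in male vehicle and 1063 bp at male day 8. The fold over input was 4.90 at female day 4 (2.97–8.62), 13.9 on day 6 (10.3–19.1) and 12.1 on day 8 (8.09–18.8). It was 3.20 in male vehicle (2.21–4.72) and 3.81 at male day 8 (1.87–8.76). The Myog promoter printed above, with the MEF3 motif from 84 to 78 bases before the start and E-boxes (CANNTG) from 138 to 133 and from 12 to 7 bases before it, lies within this region.

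**Figure D3:**
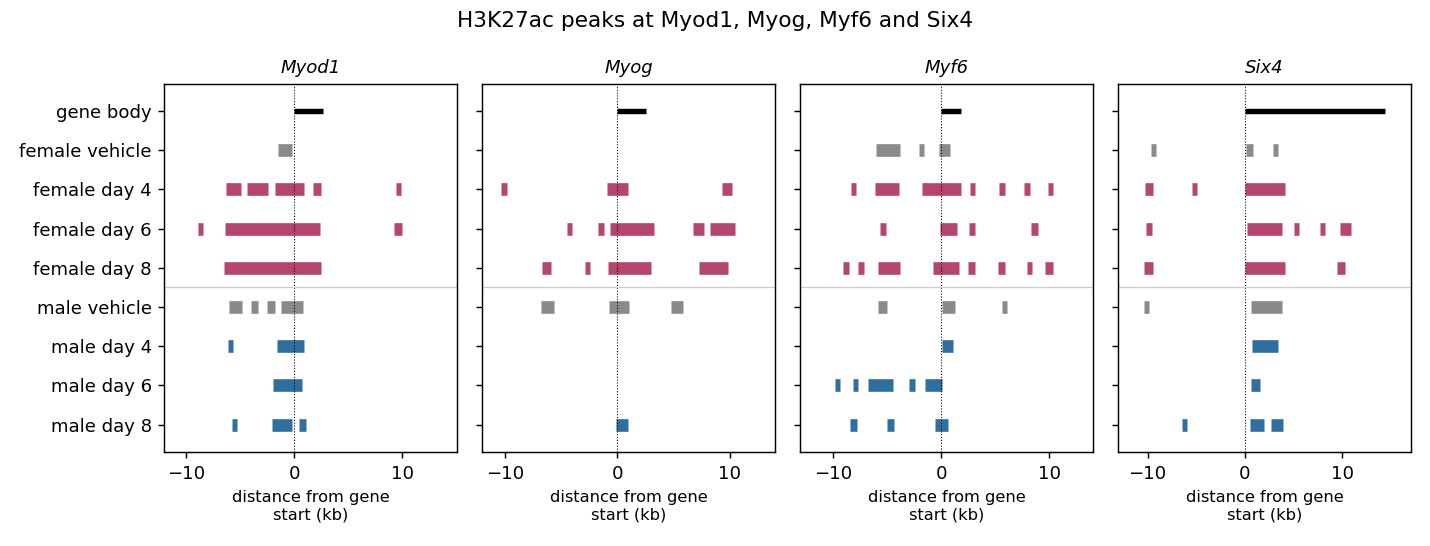
Peaks at Myod1, Myog, Myf6 and Six4 in the 8 lists, against distance from the 5′ end of the gene in kb (black bar, gene body; gray, vehicle; pink, treated females; blue, treated males). At Myod1 the peaks of female days 6 and 8 form a single block of up to 8965 bp, which begins at -6.505 kb on day 8. Peaks of male vehicle, day 4 and day 8 also lie upstream, beginning at -6.045, -6.135 and -5.77 kb. Myog has no peak in 3 lists.

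Myf6 and Myf5 lie next to each other, and a region at the Myf6 start (chr10:107492886-107496797) was in all 8 lists without any base that all 8 shared. The male vehicle and male day 4 peaks began 0.069 and 0.131 kb into the gene, and the male day 6 peak ended 0.061 kb into it and ran upstream. The fold over input was 9.42 in female vehicle (3.99–39.7), 6.25 on day 4 (4.19–9.72), 22.4 on day 6 (14.2–37.7) and 18.7 on day 8 (11.4–32.9). The 9.42 includes a floor set for a peak without input tags, and its interval is that of the counted ratio, 10.6. Males had folds of 3.89 in vehicle (2.67–5.81), 10 on day 4 (4.75–22.8), 45.0 on day 6 (7.91–1791) and 9.56 on day 8 (3.92–30.2). The male day 6 value rests on 1 input tag. A second region upstream of Myf6 was in 7 lists, missing from male day 4. At the Myf5 starts there were peaks only in the 3 treated female lists, of 25 to 39 tags each. The day 4 peak covered a predicted start, the day 6 peak covered the curated start, and the day 8 peak covered neither.

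Six4, whose protein binds the MEF3 element, had a region at its starts (chr12:73109915-73114020) in all 8 lists, which also held a start of the neighboring gene Mnat1. The stretch common to all 8 lists was 35 bp. Peaks covered 1183 bp of the region in female vehicle, 4049 bp on day 4, 3603 bp on day 6 and 4105 bp on day 8. In males they covered 3115 bp in vehicle, 2663 bp on day 4, 889 bp on day 6 and 2817 bp on day 8. The fold over input ranged from 4.24 (2.80–6.67, male day 8) to 18.7 (13.7–26.1, female day 6). Reads at a start shared by neighboring genes cannot be assigned to either gene.

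**Figure D4:**
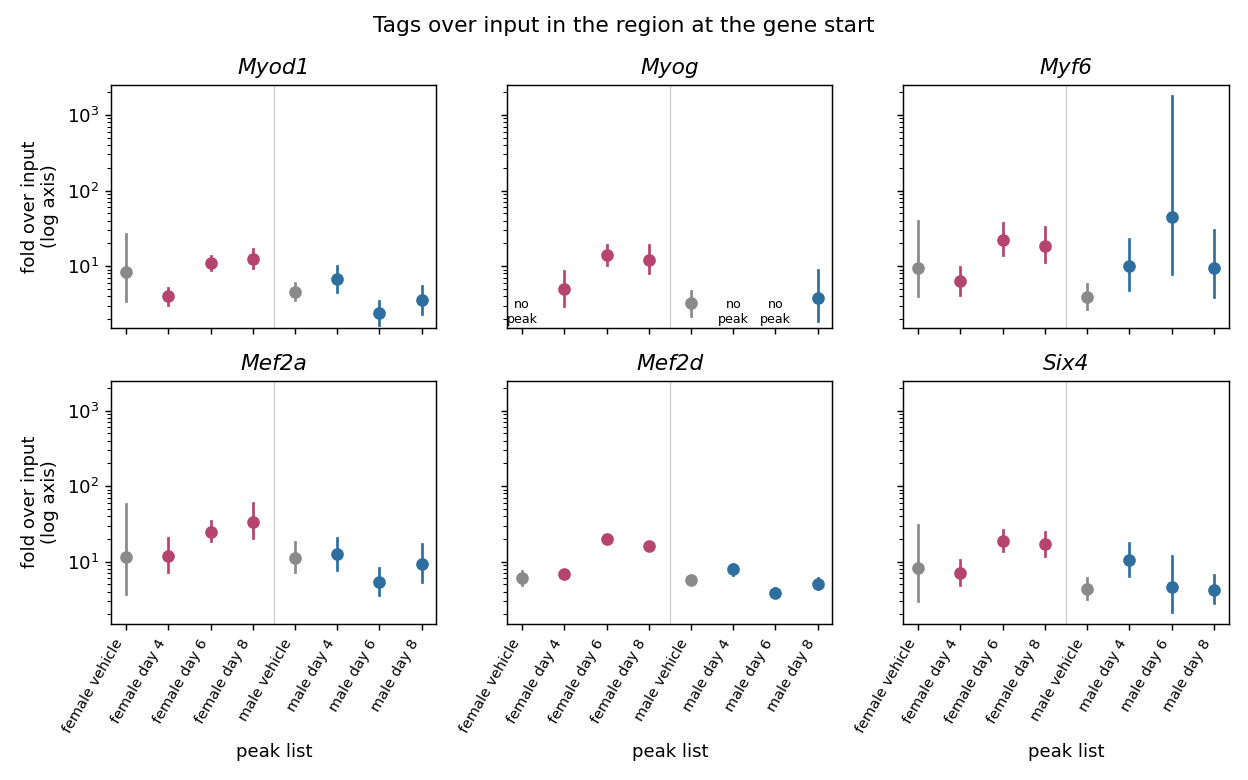
Fold of H3K27ac over input tags in the peaks called by each list in the region at the gene start (log axis) for 6 genes in the 8 lists. Points are the ratios and bars exact 95% intervals for counting error only. Female days 6 and 8 lie above female day 4 at all 6 genes, and lists without a peak are marked. The median fold of all peaks in the list was 4.8 on female day 4, 5.03 on day 6 and 9.93 on day 8. Peaks held 11.9%, 47.3% and 25.9% of the tags of these lists. The part of such list-wide differences was not tested. Within its own list, the largest Mef2d peak was at the 90.4th percentile by fold on day 4 and the 71.2nd on day 8. For Six4 these were 80.2 and 74.0. At the other genes the percentile was higher on day 8, and at all 6 it was higher on day 6 than on day 4.

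Pax7, the satellite cell factor, had 43 regions, more than any of the 9 genes other than Mef2c, and its number of peaks differed widely between lists. It had 1 peak in female vehicle, 5 on day 4, 31 on day 6 and 11 on day 8, with 10 in male vehicle, 1 at male day 4 and 0 at male days 6 and 8. In lists with a Pax7 peak, the share of its window covered was mid-range among all protein-coding genes. It lay between the 41.7th (female day 4) and the 69.5th (female day 6) percentile. At female day 6, when the whole list was the longest of all, the largest Pax7 peak was at the 71.9th percentile of the list by normalized tags, and the start was in no peak. At female day 8 a peak of 500 bp and 32 tags covered 2 predicted starts, and no peak of any list covered the curated start.

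The comparison of day 4 with vehicle asked which day 4 peaks did not overlap a vehicle peak, and these are called gained. No treated group was collected before the last injection, so the injection after which a peak appeared cannot be told. In females 53 of the 74 day 4 peaks at the 9 genes did not overlap a vehicle peak (71.6%), against 81.9% of all day 4 peaks of females. At Myog all 3 day 4 peaks were gained, at Myod1 4 of 5, at Mef2a 7 of 8, at Mef2c 26 of 37, at Mef2d 2 of 6 and at Six4 1 of 3. In males 5 of 14 day 4 peaks were gained (35.7%), against 45.4% of all male day 4 peaks. Of the 33 female vehicle peaks at the 9 genes 9 were lost on day 4 (27.3%), against 63.4% of all female vehicle peaks. Of the 40 male vehicle peaks 32 were lost (80%), against 89.7%, and 12 of the 32 were overlapped again by a peak on day 6 or 8, against 10.4% of all those lost in males. In females this was 3 of 9, against 15%. Of the 12 in males, 6 were at Mef2d, where all 6 lost peaks were overlapped again, while at Pax7 it was 0 of 9. The male day 4 list had the lowest depth, and the part of depth in these losses was not tested. With every list reduced to its 17482 highest-scoring peaks, female gains were 16, lost male vehicle peaks were 8, and the change in the number of male peaks from vehicle to day 4 went from -26 to 1.

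Of the 53 female gains, 22 were overlapped by a peak on day 6, 27 on day 8 and 18 on both, while 22 were found on neither. The share present on day 8 was 50.9%, against 43.6% of all female gains. On day 6 (22 of 53) and on both days (18 of 53) the share was instead below that of all female gains, 50.3% and 37.7%. The interval of Myf5 and Myf6 had 5 gains, of which 4, all in the windows of both genes, were present on day 8. At Mef2c 12 of 26 were. In males 1 of the 5 gains was present on day 8, at Mef2c, against 5.01% of all male gains. On day 6 there were 2 of the 5, against 5.84%, and 0 on both days, against 1.7%. Regions with a peak at days 4, 6 and 8 and none in vehicle were 13 of 158 in females (8.23%), against 6.49% of all 249990 merged regions, and 0 in males, against 0.0316%. The 13 were 2 at Myog, including its start, 3 at Mef2a, 3 in the Myf5 and Myf6 interval, 4 at Mef2c and 1 at Pax7. Of these, 7 were found in no male list.

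**Figure D5:**
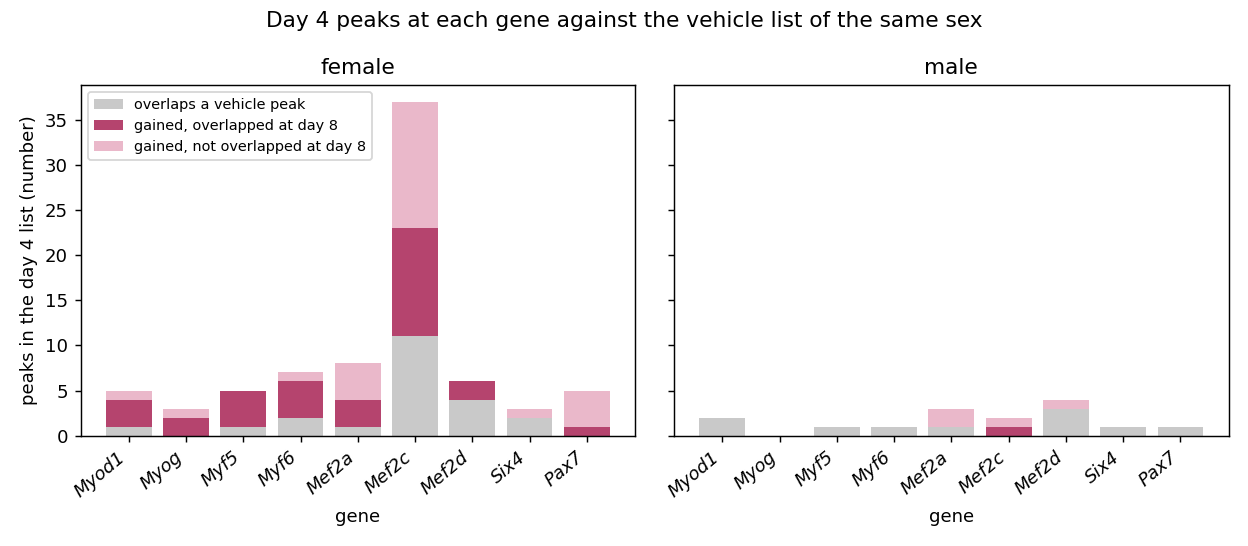
Number of peaks in the day 4 list at each gene, divided into those that overlapped a vehicle peak of the same sex, those gained and overlapped by a day 8 peak, and those gained and not overlapped on day 8; a peak in the windows of both Myf5 and Myf6 is drawn at both. Females had 53 gains of 74 peaks and males 5 of 14, and Mef2c alone held 26 of the female gains.

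Markers of other cell types had starts in peaks in some of the same lists. The 4 endothelial markers were in peaks in all 3 treated female lists and in male vehicle, with 0 in female vehicle, male day 4 and male day 8 and 1 in male day 6. Of the 4 fibroblast markers 1 was in a peak in female vehicle, 2 on day 4 and 4 at days 6 and 8, and in males 0, 1, 0 and 0. Of the 6 satellite cell markers, which include the members Pax7 and Myf5, the number was 0, 1, 2 and 3 in females and 2, 0, 0 and 0 in males. Of the 4 immune markers, Cd68 had a start in a peak in the 3 treated female lists and in no other, and Ptprc, Csf1r and Adgre1 had none in any list. Of the 3 smooth muscle markers the number was 0, 0, 3 and 2 in females and 1, 0, 0 and 0 in males, and of the 3 Schwann cell markers it was 2 on female day 6 and 1 in each other list. The part of all these cell types in the gains at Myod1, Myog, Myf5 and Pax7 was not tested.

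Among 40 partner and co-factor genes of the network, 12 had a start in a peak in female vehicle, 27 on day 4, 39 on day 6 and 34 on day 8, with 22 in male vehicle, 12 at male days 4 and 6 and 21 at male day 8. These were 30%, 67.5%, 97.5% and 85% of the 40 in females, against 17%, 46.7%, 62.8% and 56.5% of all protein-coding genes, and 55%, 30%, 30% and 52.5% in males, against 42%, 21.9%, 21.5% and 27%. In all 8 lists there were 4 of the 40 (10%), against 7.91% of all genes, which is close to it. The 4 with a start in a peak of all 8 lists were the E proteins Tcf12 and Tcf4, the acetyltransferase Ep300 and the chromatin remodeling subunit Smarcd3. None of the 6 inhibitors of myogenic factors (Id1, Id2, Id3, Msc, Twist1 and Mdfi) had a start in a peak at male days 4 and 6, and all 6 had one at female day 6, lists in which 21.9%, 21.5% and 62.8% of all genes had one. The class IIa deacetylases, which restrain MEF2, had 2 of 4 starts in peaks in female vehicle, 4 in each treated female list, and 2, 3, 1 and 3 in the male lists in the order vehicle, day 4, day 6 and day 8.

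Motif counts in the sequence of the regions gave 0.0579 MEF2 matches per kb at the 9 genes, against 0.0184 per kb in all 249990 merged regions. The E-box CAGCTG occurred 0.555 times per kb against 0.716, the MEF3 motif 0.145 times against 0.166 and the pair of glucocorticoid receptor half-sites ACANNNTGT 0.357 times against 0.327, both strands being searched and CAGCTG being one form of CANNTG. Among 32851 RefSeq promoters of 300 bases, 0.557% held the MEF2 consensus, 4.07% TCAGGTT, 72.3% CANNTG and 6.85% ACANNNTGT. Of the 9 genes 7 were matched in the promoter table, with 10 promoters, of which 1 held the MEF2 consensus (Mef2a) and 3 the MEF3 motif (Myog, Six4 and Mef2c). Of the 10, only promoters of Myog and Mef2c held CANNTG, and none held ACANNNTGT. A match is a stretch of letters and not evidence of binding.

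The share of the window covered was also compared across the 8 lists with that of other protein-coding genes. The closest gene had a Pearson r over the 8 lists of 0.9995 for Pax7 (Ninl), 0.998 for Mef2d with Cd81, 0.997 for Myog with Itga10, 0.994 for Myod1 with Ubqln4 and 0.988 for Myf6 with Cr1l. Such values were common: 6547 genes had an r over 0.9 with Pax7, 5432 with Myod1, 4079 with Mef2d and 183 with Myf6. All genes share the depth and length of the lists.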

How the data were processed

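The authors aligned ChIP-Seq reads to mm10 with Bowtie2 (version 2.2.6 in the submitters' processing notes) and took peaks from the histone mode of HOMER findPeaks, requiring at least 2-fold enrichment over the input. The way in which a group's 2 libraries were joined is not given in the sources used here. Each peak carries a normalized tag signal, deposited by the authors per 10 M tags (M, megatags); the deposited tag numbers of H3K27ac and input gave the depth and, summed over the peaks of a region, its fold over input with its interval. The ratio of a peak that the authors deposited served the stricter threshold, and the findPeaks score that the authors deposited served only to rank peaks within a list. The deposited p-values were not used. Tag counts were not compared between lists as levels.

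Depth was recovered by dividing counted by normalized tags or, elsewhere, from the spacing of low values, and 100% of values below 10 were whole tags within 0.1. Peaks were shared when they overlapped by 1 bp. Gene models and starts were RefSeq starts of GRCm38.p6 (mm10). Fold intervals are exact (95%) and cover counting error only. The 9 genes, the partner list, the markers and the motifs were chosen with earlier results of these data known. All 9 genes are named; named regions were those in all 8 lists and those maintained over days 4, 6 and 8 in 1 sex and absent from vehicle (the rule also took each gene's highest-scoring peak, not described singly), and further regions were named after their values were seen. For likeness, the 3 genes with the highest r were taken for each gene. No test between groups was made, since each group has 1 list. Alternatives were a fold over input of at least 4, an overlap of 50%, lists of equal length (17482 peaks) and other windows, with curated starts, lists other than male day 4 and day 6 in place of day 4 added after seeing the data. Overlaps, windows, depth and motif searches were tested on simulated data. Tools were bedtools 2.31.1, pysam 0.24.0, scipy 1.17.1 and pandas 2.3.3 in Python 3.11.15.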

Additional observations from a re-analysis of the deposited data

Results flagged for a closer look

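From vehicle to day 4, females gained and males lost peaks in number. At the 9 genes together the change was 41 in females and -26 in males. It was 4 and -2 at Myod1, 3 and -3 at Myog, 3 and -1 at Myf5, 4 and -2 at Myf6, 22 and -5 at Mef2c, 1 and -4 at Mef2d and 4 and -9 at Pax7, females before males, with peaks in the windows of both Myf5 and Myf6 counted at each. The difference between the sexes was not tested, because each group has 1 list. With lists of equal length the change over all 9 genes was 3 in females and 1 in males. As a share of the list, peaks at the 9 genes were 0.0457% in male vehicle and 0.0801% on day 4, while females had 0.0849% and 0.110%. On day 4 the male list had 7.52 M tags and 17482 peaks, against 31.6 M and 87600 in male vehicle, and the female lists had 49.0 M and 67503 at day 4 against 27.5 M and 38861 in vehicle. At Mef2d the female lists held 6 peaks on day 4, 3 on day 6 and 1 on day 8, while the covered share of the window was 83.4%, 97.0% and 100%.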

How the results depend on the processing

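Of 54 values recomputed for 11 counts, 27 stayed within 1.5 times, 25 moved further and 2 changed direction. The change in male peaks from vehicle to day 4, -26, was 1 with lists of equal length and 1 with day 6 in place of day 4, and -10 with a fold over input of at least 4 and -11 within 10 kb of a start only. With lists of equal length there were 53 regions in place of 158, 2 in all 8 lists (Mef2a and Mef2d) in place of 5, and 1 gene (Mef2a) with a start in a peak of every list in place of 3; female gains were 16, gains kept at day 8 were 7 and the female change was 3, while male gains were 9, kept 4 and lost vehicle peaks 8. With a fold over input of at least 4 there were 3 regions in all 8 lists (Mef2a, Mef2d and Six4), female gains kept at day 8 were 15, lost female vehicle peaks 14, the female change 25, male gains 8, kept 2 and lost male vehicle peaks 19. Within 10 kb of a start only there were 60 regions, 23 female gains, 15 kept at day 8, 1 lost female vehicle peak, a female change of 19 and 16 lost male vehicle peaks. With an overlap of 50%, 14 female vehicle peaks were lost. The cause of these moves was not tested, apart from fewer peaks being used in shorter lists and smaller windows. Without the male day 4 list, 7 regions were in all of the other lists.

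No paired analysis was possible because each group has 1 list and no value per library, and likewise no replicate was left out. The depth of the male day 4 list, 7.52 M tags, limits what its missing peaks show, and folds resting on few input tags have wide intervals.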
